A study of Cricetiscus sungorus with 16 samples.

Results

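The transcripts of 9 genes of anti-Müllerian hormone (AMH) and bone morphogenetic protein (BMP) signalling were followed in the ovaries of female Siberian hamsters. They are the hormone Amh, the BMP ligands Bmp2, Bmp4, Bmp6 and Bmp7, the type II receptors Amhr2 and Bmpr2, and the type I receptors Bmpr1a and Bmpr1b. The genes were picked by the mouse transcript identifiers that the array gives each probe, whatever their values, and all 9 identifiers were found among the 33272 on the array. They carried 12 probes in 39 spots. Of the 9 genes, 8 passed the filter on dim signal and were tested together with the rest of the 20143 transcript identifiers that passed. Amhr2 did not pass.

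The hamsters had been carried in the womb and reared in short days (SD, 10 h of light a day) or in long days (LD, 16 h of light a day), and were killed at 8 or 3 wk of age. SD delays sexual maturity in this species, per the series' design. At 8 wk there were an SD and an LD group, and the same at 3 wk, which makes 4 groups of 4 females, and RNA from both ovaries of 1 hamster went on each of the 16 arrays. No genotype, drug or surgery is named for any group. For the SD group at 8 wk, the labels give 10 h of light in 1 field and 16 h in others, and it was taken as SD with 10 h. The design asks how SD and LD ovaries differ at each age, and what changes between 3 and 8 wk in each day length.

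AMH and BMPs belong to the transforming growth factor beta family. A ligand joins a type II receptor, which switches on a type I receptor, and SMAD proteins then carry the signal to the nucleus. In the mouse ovary AMH comes from granulosa cells of growing follicles, where it restrains the entry of primordial follicles into growth and lowers the response of follicles to follicle-stimulating hormone. BMPs are made by granulosa cells, theca cells, the stroma and the oocyte, and act on follicle survival, granulosa cell growth and steroid production.

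The array was designed for mouse, so each value is the signal of a mouse probe with hamster RNA. How well each probe matches its hamster transcript was not tested. Levels are log2 of a spot's processed signal minus the 75th percentile of its array, so a level of 0 is the 75th percentile and 1 unit is a factor of 2. Levels of different probes depend on the probe and are not set against each other. The files give no gene symbols, so markers of ovarian or other cells could not be looked up and the tissue label was not checked. Of the probes on an array, between 58.0% and 75.7% were well above background.

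The arrays lay on 4 slides, with 1 array of every group on each slide, and each group always had the same place on its slide. Group and place therefore cannot be told apart. Slide 1 stood apart: the 75th percentile of intensity was 320 to 487 there and 781 to 1055 on slides 2 to 4, and 1.79% to 2.95% of its spots were flagged as outliers, against 0.148% to 0.477%. Arrays of the same slide deviated together from their group means, so results are given without the slide, with the slide as a block, and within slides. Values per sample below are in the order of slides 1 to 4. With 4 arrays a group, the number of arrays sets how precise these values can be.

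Between 3 and 8 wk the signal of Amh fell in both day lengths, and in SD that of the receptors Bmpr2 and Bmpr1b fell as well. Each of these genes was read from a single probe printed in 1 spot. The array held no other probe of their identifiers, so these falls could not be compared with a second probe. Over all 20143 identifiers, 11.3% were called in the SD age change and 4.47% in the LD age change (limma, adjusted p under 0.05), with 5.69% and 2.65% called lower. Among the 8 genes tested, 3 were lower at 8 wk in SD and none was higher. In LD 1 was lower and none was higher. None of the 8 was called in the difference between the age changes, so a difference between the day lengths was not shown. Without the slide 0.0546% of all identifiers were called in it, and 0.149% with the slide as a block, which called none of the 8 either. With the slide as a block, Bmp7 was also called higher in SD and Bmpr2 lower in LD. That fit called 24.2% of all identifiers in the SD age change and 11.9% in the LD age change. It called 12.7% higher in SD and 7.01% lower in LD. The median difference of the 8 genes was -0.36 in SD and -0.33 in LD, beside 0.02 and -0.01 over all identifiers. Between SD and LD, none of the 8 was called at either age, where 1.13% of all identifiers were called at 8 wk and 0% at 3 wk. With the block, Bmp7 was called higher in SD at 8 wk, where 2.88% of all identifiers were called, and none of the 8 was called at 3 wk, where 0% were. In whole ovaries, fewer cells of a type and less RNA per cell cannot be told apart.

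**Figure D1:**
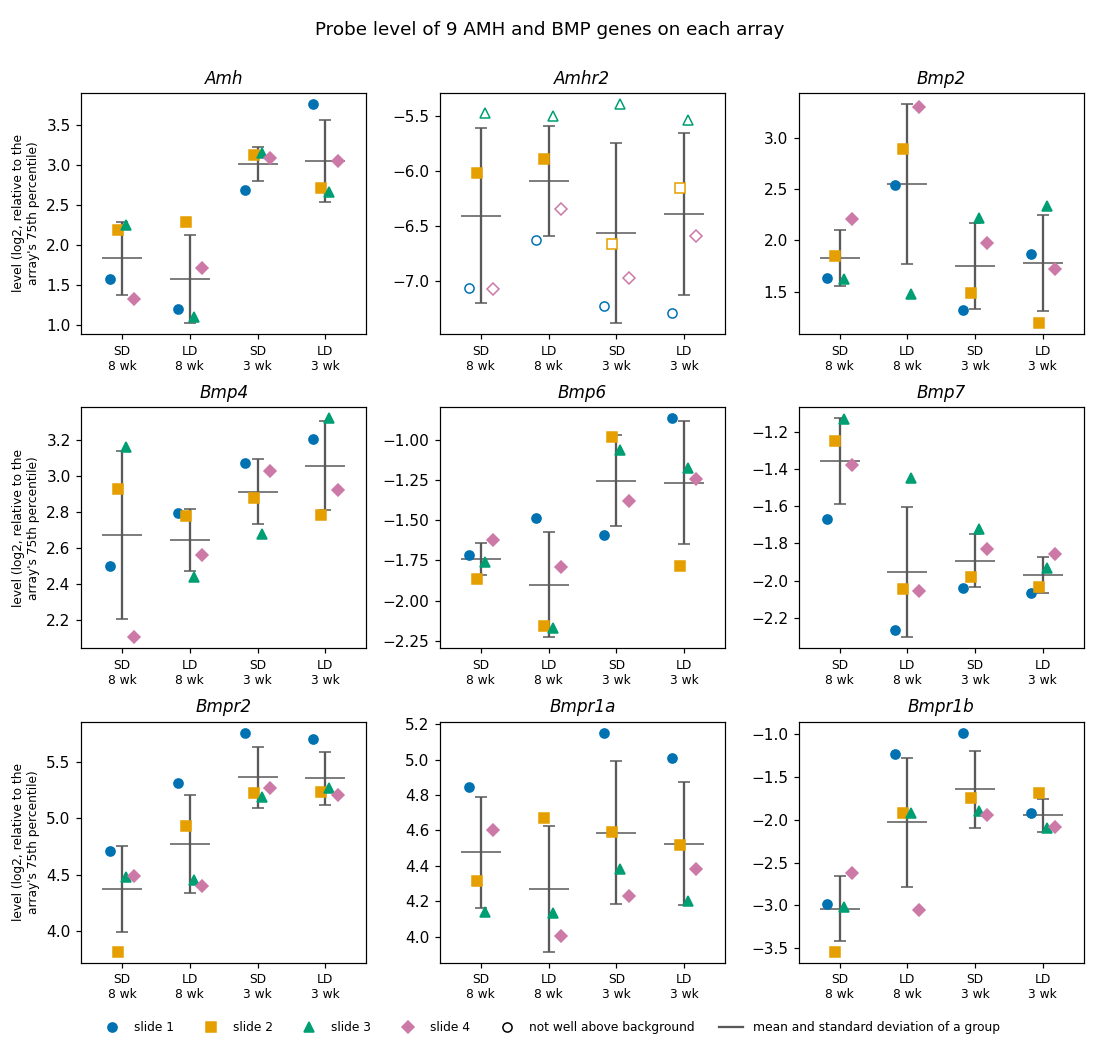
Level of the 9 genes on each of the 16 arrays (vertical axis, log2 relative to the array's 75th percentile; each panel has its own range), by group, with SD left of LD and 8 wk left of 3 wk. Symbols mark the slide, open symbols a spot not well above background, and bars the mean and standard deviation of a group; Amh at 8 wk lies below Amh at 3 wk in both day lengths, and most Amhr2 symbols are open.

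Amh (NM_007445) had levels of 1.58, 2.19, 2.25 and 1.32 in SD ovaries at 8 wk, against 2.69, 3.13, 3.15 and 3.10 in SD ovaries at 3 wk. In LD its levels were 1.20, 2.29, 1.1 and 1.71 at 8 wk, against 3.77, 2.72, 2.67 and 3.06 at 3 wk. In each day length every ovary at 8 wk was below every ovary at 3 wk.

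At 8 wk the mean level of Amh was 1.84 ± 0.46 in SD and 1.57 ± 0.55 in LD. The means at 3 wk were 3.02 ± 0.22 in SD and 3.05 ± 0.51 in LD (± standard deviation, n = 4 each). In SD, Amh fell 2.27-fold between the ages (log2 difference -1.18, standard error 0.29, limma adjusted p = 0.0141, and 0.0136 with slide as a block). In LD it fell 2.79-fold (-1.48, standard error 0.29, adjusted p = 0.00791, and 0.00884 with the block). Within slides the difference was negative on 4 of 4 slides in both day lengths, from -1.78 to -0.90 in SD and from -2.57 to -0.43 in LD. Without slide 1 both falls were still called, at -1.20 in SD (adjusted p = 0.0167) and -1.12 in LD (adjusted p = 0.0427).

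The size of the Amh fall did not differ detectably between the day lengths: the signed SD change (-1.18) minus the signed LD change (-1.48) was 0.30, a smaller fall in SD, with a 95% interval from -0.57 to 1.17. On single slides it was 1.46, -0.51, 0.67 and -0.43. Without slide 1 it changed sign, to -0.09. At 8 wk, SD ovaries were 0.26 above LD ovaries in Amh, with an interval from -0.35 to 0.88. On single slides that difference ran from -0.39 to 1.15, with 2 slides of each sign. At 3 wk the difference between SD and LD was -0.04 (interval -0.65 to 0.58).

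Bmp7 (NM_007557), a ligand that in rodent ovaries is made by theca cells, had levels of -1.67, -1.25, -1.13 and -1.38 in SD at 8 wk, against -2.27, -2.04, -1.45 and -2.05 in LD at 8 wk. At 3 wk its levels were -2.04, -1.98, -1.72 and -1.83 in SD, and -2.07, -2.03, -1.93 and -1.86 in LD. The 4 SD ovaries at 8 wk were above all 4 SD ovaries at 3 wk, while the LD ovary on slide 3 lay among the SD ovaries at 8 wk.

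Bmp7 averaged -1.36 ± 0.23 in SD and -1.95 ± 0.35 in LD at 8 wk, with -1.89 ± 0.14 in SD and -1.97 ± 0.10 in LD at 3 wk (n = 4 each). The mean of SD at 8 wk was thus the highest, and the other 3 means lay within 0.08 of each other.

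Whether Bmp7 passes the threshold depends on the slide term, and also on the scaling and weighting of the arrays and on single arrays. The SD age difference was 0.54, or 1.45-fold, with a 95% interval from 0.17 to 0.91 (limma adjusted p = 0.0609 without the slide and 0.00474 with it as a block). At 8 wk, SD minus LD was 0.60, or 1.51-fold, with an interval from 0.23 to 0.97 (adjusted p = 0.158 without the slide and 0.0140 with the block). With the block, 24.2% of all identifiers were called in the SD age change and 2.88% in SD against LD at 8 wk, with 12.7% and 1.96% called higher. Within slides, the SD age difference of Bmp7 ran from 0.37 to 0.73 and SD minus LD at 8 wk from 0.32 to 0.79, positive on 4 of 4 slides in both. Both rest on the same 4 SD ovaries at 8 wk. SD minus LD at 3 wk was also positive on 4 of 4 slides, from 0.02 to 0.21. Without slide 1 and without the block, the SD age difference was called (0.59, adjusted p = 0.0326) and SD minus LD at 8 wk was not (0.60, adjusted p = 0.132). With the block and without slide 1, the SD age difference was called (adjusted p = 0.0122) and SD minus LD at 8 wk lost its call (adjusted p = 0.0568). Leaving out the LD ovary at 8 wk on slide 3 brought SD minus LD at 8 wk to 0.77 (adjusted p = 0.0248).

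In LD, Bmp7 differed by 0.02 between the ages, with an interval from -0.35 to 0.39. The SD age difference minus the LD one was 0.52 (interval -0.01 to 1.04), which was not called with or without the block (adjusted p = 0.345 and 1.0). The probe described is printed in 10 spots, whose standard deviation within an array was 0.029 to 0.186. A single-spot probe of the same identifier, also well above background on all 16 arrays, gave smaller differences that were not called: 0.18 between the ages in SD (interval -0.25 to 0.61) and 0.27 for SD minus LD at 8 wk (interval -0.16 to 0.70), each positive on 3 of 4 slides. It did not show the pattern of the brighter probe: its LD age difference was 0.26, its SD minus LD at 3 wk was 0.35, and its SD age difference minus the LD one was -0.08, none called.

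Bmp2 (NM_007553), a ligand made by granulosa cells in several mammals, had levels of 1.64, 1.85, 1.62 and 2.21 in SD at 8 wk, against 2.54, 2.89, 1.47 and 3.30 in LD at 8 wk. At 3 wk it had 1.32, 1.49, 2.22 and 1.98 in SD, and 1.86, 1.19, 2.34 and 1.72 in LD. The LD ovaries at 8 wk on slides 1, 2 and 4 were above every other ovary, and the LD ovary on slide 3 was among the lowest. The probe of Bmp2 is printed in 10 spots, whose scatter within an array (standard deviation 0.016 to 0.155) covers spot noise only and not the variation between hamsters or hybridisations.

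Bmp2 was -0.72 in SD minus LD at 8 wk (interval -1.42 to -0.02, adjusted p = 0.607, and 0.340 with the block), negative on 3 slides and 0.15 on slide 3. Its LD age difference was 0.77 (interval 0.07 to 1.47, adjusted p = 0.257, and 0.161 with the block), positive on 3 slides and -0.87 on slide 3. Leaving out the LD ovary at 8 wk on slide 3 brought the LD age difference to 1.13 (adjusted p = 0.0387). In SD the age difference was 0.08 (interval -0.62 to 0.78).

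Bmp6 (NM_007556), which is made by the oocyte in the mouse, had levels of -1.72, -1.86, -1.76 and -1.63 in SD at 8 wk, against -1.59, -0.98, -1.06 and -1.38 in SD at 3 wk. In LD it had -1.49, -2.16, -2.17 and -1.79 at 8 wk, against -0.87, -1.79, -1.18 and -1.24 at 3 wk. The ages did not overlap in SD and overlapped in LD.

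The age difference of Bmp6 was -0.49 in SD (interval -0.93 to -0.05, adjusted p = 0.166, and 0.0961 with the block) and -0.63 in LD (interval -1.07 to -0.19, adjusted p = 0.109, and 0.0574 with the block). It was negative on 4 of 4 slides in each, and neither was called without the slide or with it as a fixed block. Other settings called them. The LD value was called with slide as a random block (adjusted p = 0.0307), with array weights (adjusted p = 0.0195), and with the fixed block without slide 1 (adjusted p = 0.0497). In that order these fits called 2566, 1778 and 2157 of the 20143 identifiers in the LD age change, against 900 without the slide. The SD value was called with array weights (adjusted p = 0.0175) and without slide 1, at -0.61 (adjusted p = 0.0449, and 0.0367 with the fixed block). In that order these fits called 3666, 2885 and 4445 identifiers in the SD age change, against 2284 on all slides without the block. Bmp6 was also called in LD when the LD ovary at 3 wk on slide 2 was left out (-0.80, adjusted p = 0.0318) or the LD ovary at 8 wk on slide 1 (-0.77, adjusted p = 0.0418). The other, dimmer probe of Bmp6 gave -0.10 in SD and -0.25 in LD, neither called (adjusted p = 0.858 and 0.630). Between SD and LD, Bmp6 differed by 0.16 at 8 wk (interval -0.28 to 0.60).

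Bmp4 (NM_007554), a ligand from theca cells and stroma in rodents, had levels of 2.50, 2.93, 3.16 and 2.11 in SD at 8 wk, against 3.08, 2.88, 2.68 and 3.03 in SD at 3 wk. In LD it had 2.79, 2.78, 2.44 and 2.56 at 8 wk, against 3.21, 2.78, 3.32 and 2.92 at 3 wk. The SD ovaries at 8 wk were the most spread group (standard deviation 0.47, against 0.17 to 0.25 in the other groups). No comparison was called for Bmp4: the LD age difference was -0.41 (interval -0.83 to 0.01), the SD age difference was -0.24 (interval -0.66 to 0.18) and SD minus LD at 8 wk was 0.03 (interval -0.39 to 0.45).

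**Figure D2:**
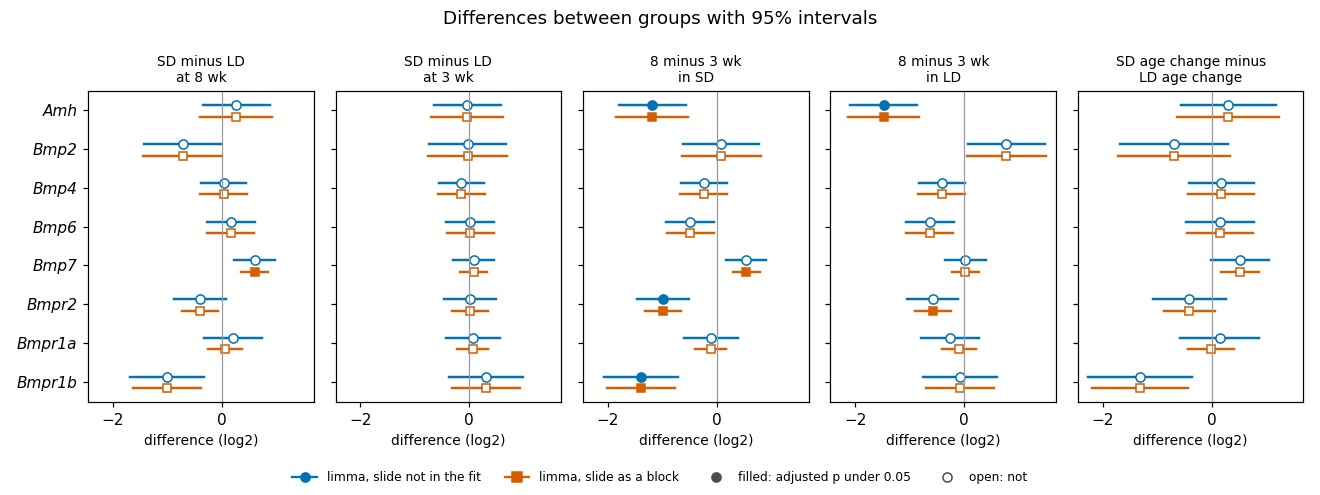
Log2 differences of the 8 tested genes (points) with 95% intervals (lines) in SD minus LD at 8 and at 3 wk, 8 minus 3 wk in SD and in LD, and the difference of the 2 age changes (SD minus LD). Circles are fits without the slide and squares fits with the slide as a block, filled where adjusted p is under 0.05: Amh is filled in both age changes, Bmpr2 and Bmpr1b in SD, and squares alone are filled for Bmp7 and for Bmpr2 in LD.

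Bmpr2 (NM_007561), the type II receptor for BMP ligands and for the oocyte's own growth factors, had levels of 4.71, 3.82, 4.47 and 4.49 in SD at 8 wk, against 5.76, 5.23, 5.19 and 5.27 in SD at 3 wk. In LD its levels were 5.32, 4.93, 4.45 and 4.39 at 8 wk, against 5.71, 5.23, 5.27 and 5.20 at 3 wk. The SD ovaries at 8 wk were all below those at 3 wk, and in LD 1 ovary at 8 wk, on slide 1, reached the range at 3 wk. The array on slide 1 was the highest in all 4 groups.

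In SD, Bmpr2 fell 1.99-fold between the ages (log2 difference -0.99, standard error 0.22, limma adjusted p = 0.00840, and 0.000663 with the block). The fall was present on 4 of 4 slides, from -1.41 to -0.72, and without slide 1 it was -0.97 (adjusted p = 0.00447). In LD the age difference was -0.58 (interval -1.06 to -0.11), not called without the slide (adjusted p = 0.191) and called with the block (adjusted p = 0.0276), and it was negative on 4 of 4 slides, from -0.81 to -0.31. With the block and without slide 1 it was -0.64 and no longer called (adjusted p = 0.0654). With the block, 11.9% of all identifiers were called in the LD age change and 7.01% were called lower.

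The SD change of Bmpr2 was not shown to differ from the LD change: their difference was -0.41, with an interval from -1.08 to 0.26. At 8 wk, SD minus LD was -0.40 (interval -0.88 to 0.07). That value came from slides 1 and 2, at -0.61 and -1.11, while slides 3 and 4 gave 0.02 and 0.10. At 3 wk the groups differed by 0.01 (interval -0.47 to 0.48).

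Amhr2 (NM_144547), the type II receptor that binds AMH alone, gave almost no signal. Its spot was well above background on 2 of 16 arrays, 1 of SD at 8 wk and 1 of LD at 8 wk, both on slide 2. At 8 wk its levels were -7.06, -6.02, -5.48 and -7.08 in SD, and -6.63, -5.89, -5.50 and -6.35 in LD. At 3 wk they were -7.23, -6.67, -5.39 and -6.98 in SD, and -7.29, -6.16, -5.54 and -6.59 in LD. In every group the array on slide 3 was the highest, and these 4 arrays lay above the other 12. The processed intensity of the spot ran from 2.33 to 24.8. No fold change is given for Amhr2, and its weak signal says nothing on whether the hamster gene was expressed, since the match of the mouse probe to the hamster transcript is unknown.

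Bmpr1b (NM_007560), a type I receptor known from sheep, in which a change in it raises ovulation rate, had levels of -2.98, -3.54, -3.02 and -2.62 in SD at 8 wk, against -0.99, -1.75, -1.90 and -1.94 in SD at 3 wk. In LD it had -1.24, -1.92, -1.92 and -3.05 at 8 wk, against -1.93, -1.69, -2.09 and -2.09 at 3 wk. The SD ovaries at 8 wk were all below those at 3 wk. Among the LD ovaries at 8 wk, the one on slide 4 fell inside the range of the SD ovaries at 8 wk and the other 3 lay above that range.

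In SD, Bmpr1b fell 2.63-fold between the ages (log2 difference -1.39, standard error 0.32, limma adjusted p = 0.00885, and 0.00405 with the block). It fell on 4 of 4 slides, by 1.99, 1.79, 1.12 and 0.67. Without slide 1 the fall was -1.19 (adjusted p = 0.0206). In LD the age difference was -0.08 (interval -0.76 to 0.59), with 2 slides of each sign.

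For SD minus LD at 8 wk, Bmpr1b was -1.01 (interval -1.68 to -0.33), which was not called (adjusted p = 0.216, and 0.0914 with the block). With slide as a random block the adjusted p was 0.0458, in a fit that called 757 of all identifiers, against 227 without the slide. On single slides the difference was -1.74, -1.62, -1.09 and 0.43. Leaving out the LD ovary on slide 4 gave -1.35 (adjusted p = 0.0260), so the call depends on this ovary and on how the slide is treated. The age change in SD minus that in LD was -1.31 (interval -2.26 to -0.36), also not called (adjusted p = 0.979, and 0.342 with the block) so a difference between the day lengths was not shown. In that comparison 11 of all identifiers, or 0.0546%, were called without the slide and 0.149% with it.

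Bmpr1a (NM_009758), the type I receptor that serves both AMH and several BMPs, had levels of 4.84, 4.31, 4.14 and 4.60 in SD at 8 wk, against 5.15, 4.59, 4.38 and 4.23 in SD at 3 wk. In LD it had 4.67, 4.13 and 4.0 at 8 wk on slides 2 to 4, since its spot on slide 1 was flagged as an outlier and left out, against 5.01, 4.51, 4.20 and 4.38 at 3 wk. All groups overlapped. The age difference was -0.11 in SD (interval -0.61 to 0.38) and -0.26 in LD (interval -0.79 to 0.28), and SD minus LD was 0.21 at 8 wk (interval -0.33 to 0.74) and 0.06 at 3 wk (interval -0.43 to 0.56). None was called, and the intervals leave room for changes of up to 0.79 in LD. Slide 1 was the highest for this probe in the other 3 groups. With the slide as a block the LD age difference was -0.10 (interval -0.41 to 0.21) and SD minus LD at 8 wk was 0.05 (interval -0.26 to 0.36). The other probe of Bmpr1a, far dimmer, gave differences between -0.09 and 0.32 in these 4 comparisons, none called.

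**Figure D3:**
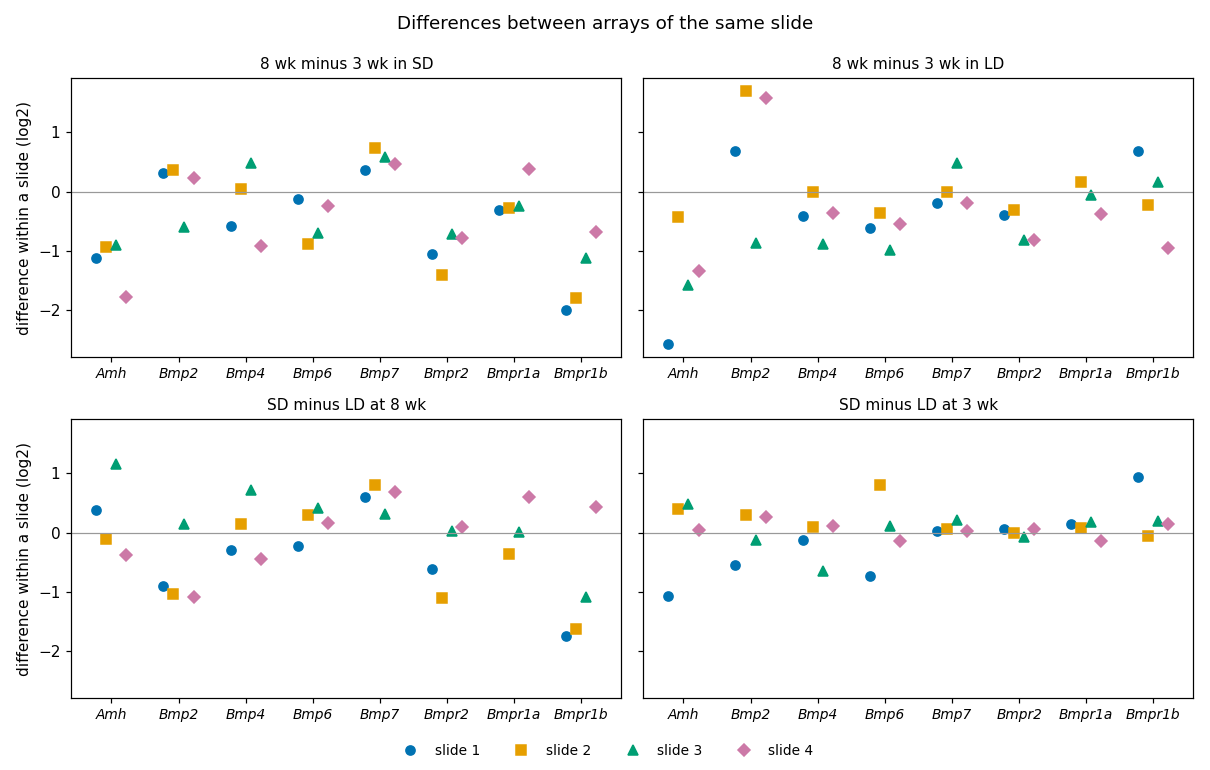
Difference between 2 arrays of the same slide (vertical axis, log2) for the 8 tested genes, in the age comparisons (8 minus 3 wk, top) and the day-length comparisons (SD minus LD, bottom), with symbols for the slide. All 4 points lie below 0 for Amh, Bmp6 and Bmpr2 in both age comparisons, and for Bmpr1b in the SD age change. For Bmp4 they do in the LD age change, with slide 2 at -0.001. For Bmp7 all 4 lie above 0 in the SD age change and in SD minus LD at both ages, by 0.02 to 0.21 at 3 wk.

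Across the 8 genes, groups that did not overlap were found for 5 in the SD age change (Amh, Bmp6, Bmp7, Bmpr2 and Bmpr1b) and for 1 in the LD age change (Amh), where 18% and 9.73% of all identifiers did not overlap. In SD against LD no gene was free of overlap at 8 or at 3 wk, where 4.29% and 1.9% of all identifiers were. The 2 age comparisons share no ovaries, but each shares a group with each comparison of day length. At 8 wk, 3 of the 8 genes (Bmp2, Bmp7 and Bmpr1b) had an unadjusted p under 0.05 in limma, where 7.82% of all identifiers did. At 3 wk none did and the lowest unadjusted p was 0.353 (limma, n = 4 each), where 1.83% did. The differences at 3 wk ran from -0.14 for Bmp4 to 0.30 for Bmpr1b.

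**Figure D4:**
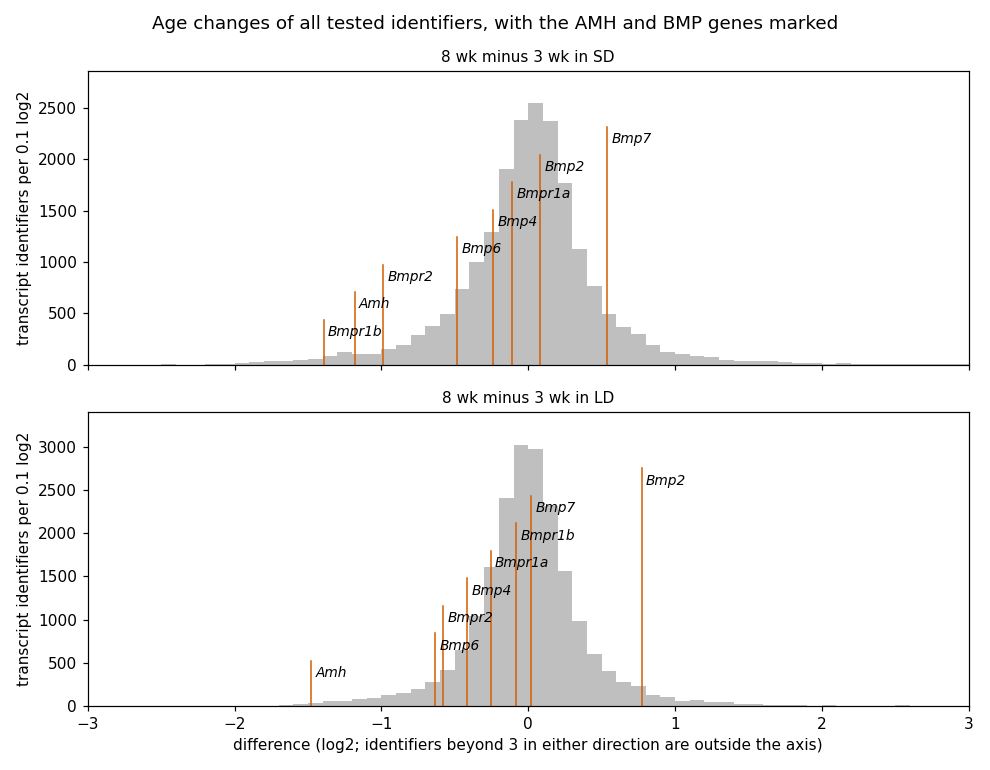
Histograms of the log2 age difference (horizontal axis; 8 minus 3 wk, SD above and LD below) over all tested transcript identifiers (vertical axis, number per bin of 0.1), with the 8 genes as vertical lines whose heights only separate the names. Bmpr1b, Amh and Bmpr2 lie in the lower tail in SD, and Amh does in LD.

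The 4 called falls (Amh in SD and in LD, Bmpr2 in SD and Bmpr1b in SD) rest on how the background was treated in 1 respect. Normexp, a correction that models each spot as signal plus background, when fitted on all spots took away all 4 calls (adjusted p = 1.0 for each), with differences of -1.0 and -1.24 for Amh in SD and in LD, -0.92 for Bmpr2 and -0.39 for Bmpr1b. On 5 arrays that correction gave a median signal over 400, up to 4696, against at most 104 in the files' own processed signal. Fitted without spots flagged as outliers it kept all 4 calls. The differences were then -1.19 and -1.44 for Amh in SD and in LD, and -0.96 for Bmpr2 in SD. For Bmpr1b in SD the fall was smaller, at -0.94 against -1.39 without normexp. Both normexp fits also added 50 to every corrected signal. The processed intensity of the Bmpr1b spot was 57.2 to 151 in SD at 8 wk and 176 to 278 in SD at 3 wk. How far the added 50 made the fall smaller was not tested.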

How the data were processed

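Each array received amplified RNA of 1 hamster's ovaries in a single colour, per the labels' protocols. Per the file headers, the authors read the scans with Agilent Feature Extraction 10.5.1.1, and the deposited scanner files give a processed intensity per spot, corrected for background on a linear scale and not normalized between arrays. The value table deposited by the authors repeats these intensities: 4 of its 694064 cells, all in 1 column, were over 1% off and the others within 0.497%. Its column medians of 26.6 to 91.5 show that it is linear and not centred. The deposited files also flag spots that are outliers or stand well above background (other columns). The 4 scanned slides carry 3 scan days. The labels conflict on the hours of light of the SD group at 8 wk, as the report states. Every sample has an animal code of its own in the labels, and replicate numbers are those of the slides.

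From the 45018 spots, the 43379 spots that are not controls were used. Log2 of the processed signal minus the array's 75th percentile over these spots was taken, flagged outlier spots were left out, and spots of a probe were averaged. Probes were kept if some group had them well above background on 4 of 4 arrays, and if 12 or more arrays, with 2 or more per group and per slide, measured them. Each identifier was represented by its brightest probe. No spot was saturated. The 5 comparisons came from a single limma model (version 3.58.1, R 4.3.3) of the 16 arrays, with moderated variances that follow intensity (eBayes, trend). Adjusted p-values are Benjamini-Hochberg values for 20143 identifiers, called under 0.05. The code of the fit was checked on simulated data with known changes, and no result here rests on that check. Intervals are 95%. Slide as a fixed block was an alternative: residuals of arrays of the same slide correlated with a median of 0.451 and a lowest of 0.224 over 24 pairs. No 2 of the 120 array pairs were identical.

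Every one of the 9 genes was named, whatever its value, with gene symbols from the rule that chose them. The genes, lists and tests were chosen with earlier results of these data known. Lists of other pathway genes and of cell type markers could not be matched to identifiers and were not analysed here, and the identifiers most alike in pattern were not named. Sequences and genome positions were not used here. Chosen after seeing the data were the percentile over probe means, the slide block without slide 1, every probe on its own, and normexp fitted without flagged spots.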

Additional observations from a re-analysis of the deposited data

Results flagged for a closer look

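In 4 of the 47 sets of a probe and a group of 4 arrays, 1 array stood apart from the other 3, by Dixon's ratio of the gap to its nearest neighbour over the range of the set. Chance gives about 1 in 20. All 4 arrays were on slide 1. For Amh in SD at 3 wk, the array was at 2.69 and its nearest neighbour at 3.10, a ratio of gap to range of 0.876. For Bmpr2 the slide 1 array was high in both groups at 3 wk. In SD it was at 5.76 with the nearest at 5.27 (ratio 0.860), and in LD at 5.71 with the nearest at 5.27 (ratio 0.872). The dimmer probe of Bmpr1a in SD at 8 wk was at -2.06, with the nearest at -3.05 (ratio 0.855). The part of slide 1 in these levels was not tested beyond the values without it: without slide 1 the falls of Amh in SD (-1.20) and in LD (-1.12) and of Bmpr2 in SD (-0.97) were all called.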

How the results depend on the processing

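Differences between arrays of 1 slide were the paired analysis, since each slide holds every group. Slide as a block changed 3 calls among the 8 genes: Bmp7 passed in the SD age change (adjusted p = 0.00474) and in SD minus LD at 8 wk (adjusted p = 0.0140), and Bmpr2 passed in the LD age change (adjusted p = 0.0276). Without slide 1, the block kept the SD call of Bmp7 (adjusted p = 0.0122) and lost the other 2 (adjusted p = 0.0568 and 0.0654). The 4 called falls of Amh, Bmpr2 and Bmpr1b kept their direction and side of the threshold in all 16 fits that leave out 1 array and under every other setting except normexp fitted on all spots. Over those 16 fits the adjusted p of Amh ran from 0.00683 to 0.0486 in SD and from 0.00645 to 0.0301 in LD. That of Bmpr2 in SD ran from 0.00362 to 0.0326, and that of Bmpr1b in SD from 0.00195 to 0.0367. Bmp7 in the SD age change also passed with quantile normalization, median scaling, array weights, the percentile over probe means and normexp without flagged spots (adjusted p from 0.0126 to 0.0477). Bmp6, uncalled with and without the block, passed in LD with the random block, array weights and the block without slide 1 (adjusted p from 0.0195 to 0.0497), and in SD with array weights and without slide 1, with or without the block (adjusted p from 0.0175 to 0.0449). Of the values of single genes under all settings, 1260 kept direction and side of the threshold, 59 changed sign, 29 newly passed and 4 no longer passed. All values that changed sign were uncalled and none was called with the other sign.

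The number of identifiers called moved by over 1.5 times in these cases, and the cause was not tested. In SD minus LD at 3 wk (0 called, and 369 with an unadjusted p under 0.05) the random slide block called 1 and array weights 2. In SD minus LD at 8 wk (227 called) the fixed block called 580, the random block 757, array weights 344, a fit of only the 2 groups 85 and normexp on all spots 2. For the LD age change (900 called) the numbers were 2388 with the fixed block, 2566 with the random block, 599 with median scaling, 1778 with array weights, 412 with only the 2 groups, 2157 with the block but without slide 1, and 0 with normexp on all spots. For the SD age change (2284 called) they were 4878, 4764, 3666 with array weights, 4445 with the block but without slide 1, and 17 with normexp on all spots. For the difference between the age changes (11 called) they were 30, 76, 29 with array weights, 4 without slide 1, 7 with the block but without slide 1, and 0 with normexp on all spots. Leaving out 1 array gave 0 to 1, 126 to 283, 408 to 1072, 1492 to 2616 and 8 to 49 in the same order. Normexp on all spots moved the median of all identifiers to 0.17 in the SD age change and to 0.13 in the difference between the age changes.

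Uncalled values changed sign as follows. In SD minus LD at 3 wk, Amh was 0.014 with median scaling, 0.18 with array weights and 0.31 without slide 1, with or without the block. Bmp2 was 0.022 with median scaling, 0.0097 with normexp on all spots, 0.18 with array weights and 0.14 without slide 1, with or without the block. Bmpr2 was -0.32 and -0.012 with normexp on all spots and without flagged spots, -0.014 with array weights, -0.0076 without slide 1 with or without the block, and -0.0064 with the percentile over probe means. Bmpr1a was -0.27 and -0.15 under the 2 normexp fits. Bmp6 was -0.023 with the mean of all probes and -0.00035 with the percentile over probe means. With normexp on all spots, Bmp4 was -0.031 in SD minus LD at 8 wk and Bmpr1b 0.018 in the LD age change, and Bmp7 in the LD age change was -0.021 with the percentile over probe means. In the SD age change, Bmp2 was -0.030 with normexp on all spots, -0.10 with array weights and -0.00066 without slide 1, with or without the block, and Bmpr1a was 0.027 with normexp without flagged spots. In the difference between the age changes, Bmpr1a was -0.013 with the block and -0.052 with outlier spots kept, Bmp6 was -0.077 with normexp on all spots, and Amh was -0.088 without slide 1, with or without the block. Leaving out 1 array, values of both signs were found at 3 wk for Amh (-0.17 to 0.20), Bmp2 (-0.22 to 0.16), Bmp6 (-0.16 to 0.15), Bmpr2 (-0.13 to 0.13) and Bmpr1a (-0.13 to 0.22). At 8 wk they were found for Bmp4 (-0.13 to 0.22), in the LD age change for Bmp7 (-0.15 to 0.12) and Bmpr1b (-0.35 to 0.26), and in the SD age change for Bmp2 (-0.065 to 0.23) and Bmpr1a (-0.23 to 0.076). In the difference between the age changes Bmpr1a ran from -0.017 to 0.35. The signal over background limits what can be said of Amhr2.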
